A study of Mus musculus with 4 samples.

Results

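The 8 genes described here are the mouse JAK kinases Jak1, Jak2, Jak3 and Tyk2 and 4 of the genes that switch their signal off, Socs1, Socs2, Socs3 and Cish. They were taken as a listed gene family, 8 of 21883 protein-coding genes in the RefSeq table of GRCm38.p6 (mm10). Every Runx3 peak whose summit lay in the gene's span or within 10 kb of it was assigned to the gene, which gave 20 of the 13166 ChIP peaks and 19 of the 15891 CUT&RUN peaks. The cells were splenic CD8 T cells of adult wild type mice, isolated on anti-CD8a magnetic beads. For the anti-Runx3 ChIP library, chromatin of 50000000 frozen cells pooled from 5 mice was sonicated and captured with a rabbit anti-Runx3 serum at 1 in 200. For the anti-Runx3 CUT&RUN library, in which an antibody tethers a nuclease that cuts out the DNA next to its target, 150000 fresh cells from 1 mouse were treated with the same serum at 1 in 200. A whole cell extract served as the control of the ChIP peak list, and the normal rabbit serum CUT&RUN library was not analysed here.

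JAK kinases sit on the inner tails of cytokine receptors, and when a cytokine joins the receptor chains they phosphorylate each other, the receptor and the STAT transcription factors. In T cells this pathway carries the signals of interleukins that use the common gamma chain, which pairs with Jak3 while its partner chains pair with Jak1. It also carries the signals of interferons and of the IL-12 family, and Tyk2 serves the receptors of type I interferon and IL-12. Proteins of the SOCS family, to which Cish belongs, are made in answer to STATs and close the loop: Socs1 and Socs3 bind and block JAKs, Socs2 is best known for damping growth hormone signals, and Cish restrains signals of cytokine and T cell receptors. Runx3 is a DNA-binding factor that CD8 T cells need for their development.

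Each assay had 1 library, no comparison between the assays could be checked against replicates, and no p-value is given. The ChIP list rested on 9532996 fragments after duplicate removal and the CUT&RUN list on 14068364. Assay, cell number, mice, freezing and peak calling settings changed together between the assays and cannot be told apart. The T cell genes Cd8a, Cd8b1, Cd3e and Cd3d all had peaks in both lists. Of genes of other spleen cells, the B cell gene Cd79a also had peaks in both lists, and Csf1r of macrophages and Ncr1 of natural killer cells had none. A peak shows where the serum's target was found, not whether the gene is expressed.

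Runx3 peaks lay at all 4 JAK genes in both assays and at 2 of the 4 inhibitor genes, Socs1 and Socs3. The Jak3 ChIP peaks lay inside the neighbouring gene B3gnt3, and with peaks credited to the nearest protein-coding gene Jak3 had 0. The Socs3 ChIP peak was lost at a q of 1e-05 or less. Within 10 kb, 6 of the 8 genes had a ChIP peak, where 40.2% of all protein-coding genes did, and the same 6 had a CUT&RUN peak, where 45.1% of all protein-coding genes did. Peaks of both lists that shared at least 1 bp were present at 5 of the 8 genes, Socs3 being the exception among the 6, against 31.5% of all protein-coding genes. Socs2 and Cish had no peak in either list, as did 49.5% of all protein-coding genes, a background that includes genes silent in T cells. With 8 genes the exact 95% interval on 6 of 8 runs from 34.9% to 96.8%, which takes in the background of 40.2% in ChIP, and that of 45.1% in CUT&RUN.

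The peaks were unevenly spread over the family. Jak1 had 8 ChIP peaks and 9 CUT&RUN peaks, Socs1 had 4 and 3, Tyk2 had 3 and 2, Jak3 had 2 and 2, Jak2 had 2 and 1, and Socs3 had 1 and 2. Per 100 kb of gene span and flanks, the 8 genes together held 4.74 ChIP and 4.51 CUT&RUN peaks, and without Jak1 they held 4.16 and 3.47, against 1.03 and 1.24 over all protein-coding genes, where a peak in the windows of several genes counted for each. In strength the peaks lay near the middle of their lists, with pileups of 8 to 38 fragments in ChIP and 12 to 104 in CUT&RUN. Of the 20 ChIP peaks, 9 had fewer than 50% of the ChIP list above them in −log10 q, where 50.8% of all ChIP peaks do, and of the 19 CUT&RUN peaks 9 did, where 50% of all CUT&RUN peaks do. The median pileup, the number of fragments over the summit, was 11 in ChIP at the 8 genes against 12 over the whole ChIP list, and 26 in CUT&RUN against 25 over the whole CUT&RUN list.

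**Figure D1:**
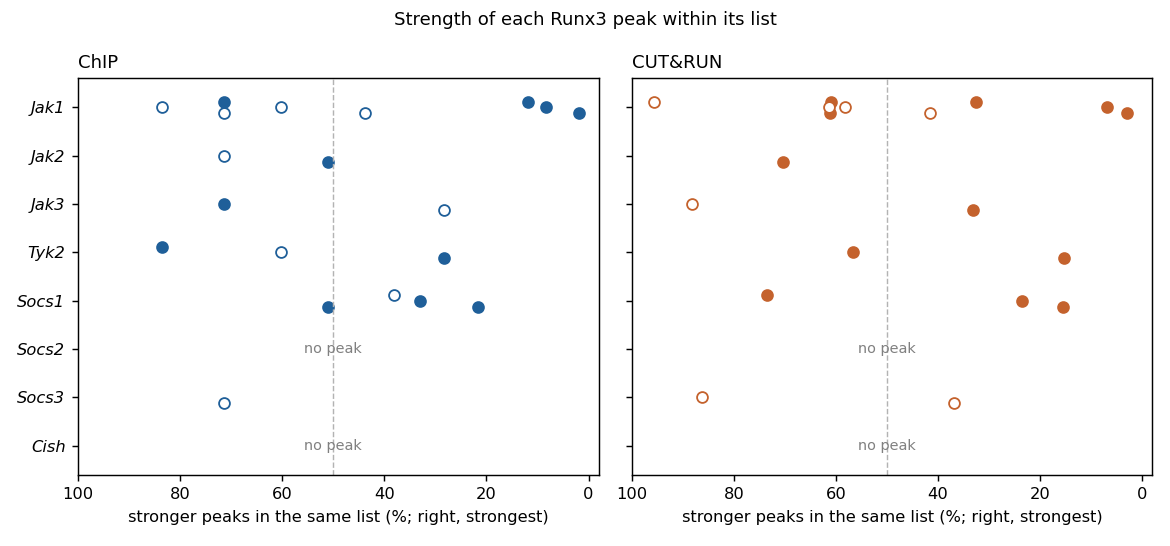
Each point is 1 Runx3 peak at a gene of the list, placed by the percentage of peaks in its own list with a higher −log10 q (strongest at the right), with ChIP left and CUT&RUN right. Filled points overlap a peak of the other list, small vertical shifts only separate points, and the dashed line marks 50%. Jak1 holds the strongest peak of the family in both panels, at 1.91% in ChIP and 3.07% in CUT&RUN, and Socs2 and Cish have none.

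The start regions of Jak2, Socs1 and Tyk2 were each overlapped by a peak of both lists, that of Jak1 by a CUT&RUN peak, and those of Jak3, Socs3 and Cish by none. RefSeq (GRCm38.p6) gives a promoter window of 250 bases before to 50 after the start for 7 of the 8 genes, all but Socs2. Over all 32851 windows, 14% were overlapped by a ChIP peak, 16.7% by a CUT&RUN peak and 10.5% by both, against 3, 4 and 3 of the 7 windows here. The stretches before the start and outside the gene span are shown for Jak1, Jak2 and Socs1, where the summits lay, and for Cish as 1 of the 3 genes whose promoter window had no peak. They read 5′ to 3′ along the gene, and capitals mark the bases inside the peaks of both assays (Jak2, Socs1) or of CUT&RUN alone (Jak1). They span chr4:101265283-101265473 (minus strand) for Jak1, chr19:29251553-29251802 (plus strand) for Jak2, chr16:10785537-10785786 (minus strand) for Socs1 and chr9:107296409-107296658 (plus strand) for Cish.
Jak1: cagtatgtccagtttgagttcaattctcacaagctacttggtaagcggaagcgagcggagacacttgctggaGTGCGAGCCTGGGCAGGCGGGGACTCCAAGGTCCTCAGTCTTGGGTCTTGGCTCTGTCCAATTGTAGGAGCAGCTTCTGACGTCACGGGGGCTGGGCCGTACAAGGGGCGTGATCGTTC
Jak2: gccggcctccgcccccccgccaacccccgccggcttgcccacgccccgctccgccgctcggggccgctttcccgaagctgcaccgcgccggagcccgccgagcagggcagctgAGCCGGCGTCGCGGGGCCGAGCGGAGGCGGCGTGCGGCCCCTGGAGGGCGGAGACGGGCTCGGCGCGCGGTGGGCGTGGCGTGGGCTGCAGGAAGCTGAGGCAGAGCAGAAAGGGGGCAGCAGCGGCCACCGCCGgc
Socs1: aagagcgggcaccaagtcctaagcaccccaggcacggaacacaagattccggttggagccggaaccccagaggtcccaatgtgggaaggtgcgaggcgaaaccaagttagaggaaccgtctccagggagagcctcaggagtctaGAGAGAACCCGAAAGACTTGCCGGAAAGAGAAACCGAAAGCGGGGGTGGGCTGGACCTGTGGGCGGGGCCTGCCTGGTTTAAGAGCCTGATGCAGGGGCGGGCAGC
Cish: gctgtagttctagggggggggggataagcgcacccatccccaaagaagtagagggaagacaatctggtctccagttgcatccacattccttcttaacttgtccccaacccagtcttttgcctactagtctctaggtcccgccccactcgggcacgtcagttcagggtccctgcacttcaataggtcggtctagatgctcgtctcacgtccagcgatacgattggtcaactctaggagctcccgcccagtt

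The core letters that RUNX proteins are known to favour, TGTGGT or TGCGGT on either strand, stood in 1 of the 7 promoter windows and in 22.4% of all 32851 windows. In windows overlapped by peaks of both lists the share was 34.9% (exact 95% interval 33.3 to 36.5), against 21.2% (20.7 to 21.7) in windows with no peak. Several windows of 1 gene counted separately: 3442 windows from 3146 gene symbols under both, and 26227 from 21838 with no peak. The intervals ignore this, the sets were not matched for G and C, and the difference was not tested. The 1 match was at Tyk2, on the opposite strand as ACCGCA, and began 23 bases before the annotated start. The site of 30 bases at chr9:21131281-21131310 (minus strand, GRCm38.p6) has the match in capitals.
Tyk2: tgggtgggacggACCGCAgccaaaggcatg
Both Tyk2 peaks at the start covered these letters, with the ChIP summit 33 bases and the CUT&RUN summit 79 bases from them. The Jak2 and Socs1 windows, also under peaks of both lists, held no such letters. The match describes letters in a window and was not tested as a binding site.

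Jak1, the kinase shared by the common gamma chain, gp130 and interferon receptors, had its main Runx3 peaks deep inside the gene. The gene lies on chromosome 4 from 101151974 to 101265282 and reads from high to low coordinates. Its highest ChIP summit, at 101187496, had a pileup of 38 fragments (exact 95% Poisson interval 26.9 to 52.2), a fold of 18.4 over background, and 1.91% of the ChIP list above it. The highest CUT&RUN summit lay 33 bp away at 101187529 with a pileup of 104 (85.0 to 126), a fold of 28.6 and 3.07% of the CUT&RUN list above it. Both summits were 77.7 kb downstream of the start, and 0.629 kb separated the ChIP summit from Gm24468, a small nuclear RNA gene inside Jak1.

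A second site, 97.3 kb downstream of the Jak1 start, had a ChIP pileup of 25 (16.2 to 36.9) at 101167963 and a CUT&RUN pileup of 71 (55.5 to 89.6) at 101167956. The ChIP peak there was 821 bp wide and also overlapped a weaker CUT&RUN peak at 101168415 with a pileup of 25. The next site, 89.7 kb downstream of the start by its ChIP summit at 101175552, had pileups of 22 (13.8 to 33.3) in ChIP and 38 (26.9 to 52.2) in CUT&RUN. These 3 sites were the 3 highest Jak1 peaks in each list, and their ChIP summits lay within 19.5 kb. The remaining overlapping pair, 51.6 kb downstream of the start by its ChIP summit, had pileups of 9 and 21.

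The Jak1 peaks that appeared in a single list were at or below the median pileup of their list. In ChIP they had pileups of 8, 9, 10 and 12, and in CUT&RUN of 12, 20, 21 and 24. At the start itself, a ChIP peak of 9 fragments lay 0.397 kb downstream and a CUT&RUN peak of 12 fragments lay 0.069 kb upstream, 466 bp apart and without overlap; 71.4% of the ChIP list and 95.7% of the CUT&RUN list stood above them. Jak1 is 113 kb long, and among the 2428 protein-coding genes of 100 kb or more the median number was 0 ChIP peaks and 1 CUT&RUN peak. Of those genes, 1.94% had at least as many ChIP peaks as Jak1, 1.94% had at least as many CUT&RUN peaks, and 5.11% had at least as many ChIP peaks that overlap a CUT&RUN peak. Jak1 is the gene with the most peaks of the 8, so these shares describe a picked gene and were not tested. At a q of 1e-05 or less, as in the CUT&RUN list, 4 of the 8 Jak1 ChIP peaks were left.

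**Figure D2:**
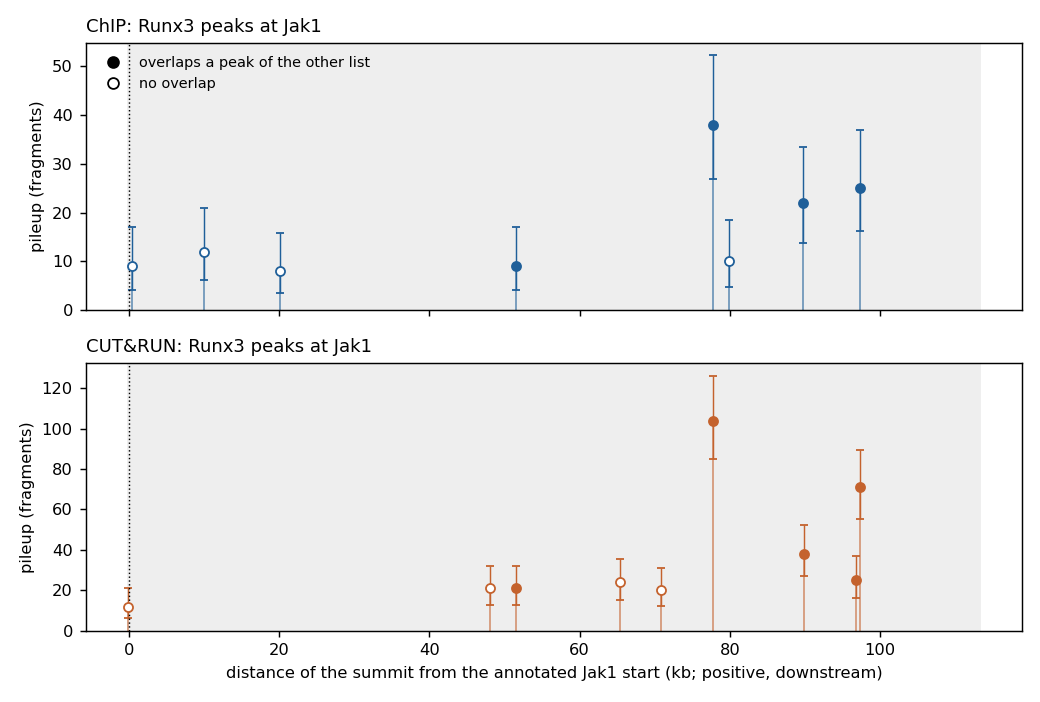
Pileup at each Runx3 summit of Jak1 (vertical axis, fragments, with exact 95% Poisson intervals) against its distance from the annotated start (horizontal axis, kb), with ChIP above CUT&RUN. Grey marks the gene span, the dotted line the start, filled points overlap a peak of the other list and open points do not. The highest point of each panel sits 77.7 kb downstream, and the vertical scales differ between panels.

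Tyk2, the kinase of type I interferon and IL-12 receptors, had its peaks at and just before its start. The gene lies on chromosome 9 from 21104068 to 21131393 and reads from high to low coordinates. At the start, the ChIP summit (21131260) had 15 fragments (8.40 to 24.7) and the CUT&RUN summit (21131377) had 28 (18.6 to 40.5). The order of the sites differed between the lists. About 2 kb upstream, at 21133254 in ChIP and 21133310 in CUT&RUN, the ChIP peak was among the weakest, with a pileup of 8 (3.45 to 15.8) and 83.5% of its list above it. The CUT&RUN peak there was the higher Tyk2 peak, with a pileup of 56 (42.3 to 72.7) and 15.4% of its list above it. Between these sites the intervals overlap in ChIP and do not in CUT&RUN. A further ChIP peak between the sites, at 21132494 with a pileup of 10, overlapped no CUT&RUN peak.

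Jak2, which serves receptors of erythropoietin, growth hormone and interferon gamma, had weak peaks at its start. The gene spans 29251803 to 29313095 on chromosome 19. The ChIP summit 0.159 kb upstream of the start, at 29251644, had a pileup of 11 (5.49 to 19.7), and the CUT&RUN summit 0.086 kb upstream, at 29251717, had a pileup of 18 (10.7 to 28.4). A second ChIP peak, 1.16 kb downstream of the start, had a pileup of 9 and no partner. The remaining span, of 61.3 kb in all, held no peak in either list. Its promoter window was 81% G and C, against a median of 52.7% over all windows.

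Jak3, the kinase that binds the common gamma chain, had no overlapping pair inside its own span. The gene spans 71676383 to 71690577 on chromosome 8. Its window held an overlapping pair, with 9 fragments (4.12 to 17.1) at the ChIP summit 71692759 and 31 (21.1 to 44.0) at the CUT&RUN summit 71692683. Next to it, a ChIP summit at 71693469 with 15 fragments (8.40 to 24.7) had no partner. All 3 summits lay inside B3gnt3, a glycosyltransferase gene next to Jak3, between 2.11 and 2.89 kb past the end of Jak3. Jak3 itself held a CUT&RUN peak 0.268 kb downstream of the start, with a pileup of 14 (7.65 to 23.5) and 88.3% of its list above it. When a peak was credited to its nearest protein-coding gene, Jak3 kept 1 CUT&RUN peak and 5 of the 8 genes had a ChIP peak, against 31.1% of all protein-coding genes. The stretch just beyond the window on the other side held a strong pair inside Unc13a, 11 kb upstream of the Jak3 start, with pileups of 29 (19.4 to 41.6) in ChIP and 72 (56.3 to 90.7) in CUT&RUN and summits 3 bp apart.

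Socs1, the inhibitor that blocks JAKs downstream of interferon gamma and interleukins, had Runx3 peaks on both sides of the gene. The gene is 1.73 kb long, spans 10783808 to 10785536 on chromosome 16 and reads from high to low coordinates. Its 7 summits, 4 from ChIP and 3 from CUT&RUN, lay within 3.94 kb, and none lay inside the gene span. At the promoter, 0.08 kb upstream in ChIP and 0.039 kb upstream in CUT&RUN, the pileups were 14 (7.65 to 23.5) and 61 (46.7 to 78.4). On the far side of the gene, 3.36 kb downstream of the start in ChIP and 3.40 kb in CUT&RUN, they were 17 (9.90 to 27.2) and 51 (38.0 to 67.1). A lower pair lay between them at 10783205 and 10783198, with summits 7 bp apart and pileups of 11 and 26. All 3 CUT&RUN peaks overlapped a ChIP peak, and of the 4 ChIP peaks the one 0.532 kb upstream of the start, with a pileup of 13, overlapped none. The order of the flanking pairs differed between the lists, and their intervals overlap in each list. The CUT&RUN background around Socs1 was 1.86 to 1.88 times the median of the list, and the folds of its 3 peaks were 7.66 to 17.5.

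Socs3, the inhibitor of receptors of the gp130 family, had peaks in both lists that did not meet. The gene spans 117966079 to 117970336 on chromosome 11 and reads from high to low coordinates. Its ChIP peak lay inside the span, 0.669 kb upstream of the RefSeq start, with a pileup of 9 (4.12 to 17.1). The CUT&RUN peaks lay past the other end of the gene, at 117965843 with a pileup of 34 (23.5 to 47.5) and at 117963655 with a pileup of 16 (9.15 to 26.0). The ChIP summit and the nearer CUT&RUN summit were 4.19 kb apart.

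Cish and Socs2 had no peak within 10 kb, but their surroundings differed. For Cish, on chromosome 9 from 107296659 to 107302784, an overlapping pair lay just past the limit, 10.3 kb beyond the end of the gene and with Cish as the nearest protein-coding gene. Its ChIP summit (107313077) held 12 fragments (6.20 to 21.0), and its CUT&RUN summit, 15 bp away (107313062), held 43 (31.1 to 57.9) with 16.8% of its list above it. Within 20 kb Cish therefore counts as having a peak, as 46.7% of all protein-coding genes do in ChIP and 51.4% in CUT&RUN. For Socs2, on chromosome 10 from 95383903 to 95417321, no peak lay within 50 kb in either list, and the nearest summits were 58.8 kb away in ChIP and 59.8 kb away in CUT&RUN. No summit assigned to any of the 8 genes lay more than 2.89 kb from its gene, so the limit of 10 kb itself decided the call for Cish alone among limits of 5, 10 and 20 kb.

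**Figure D3:**
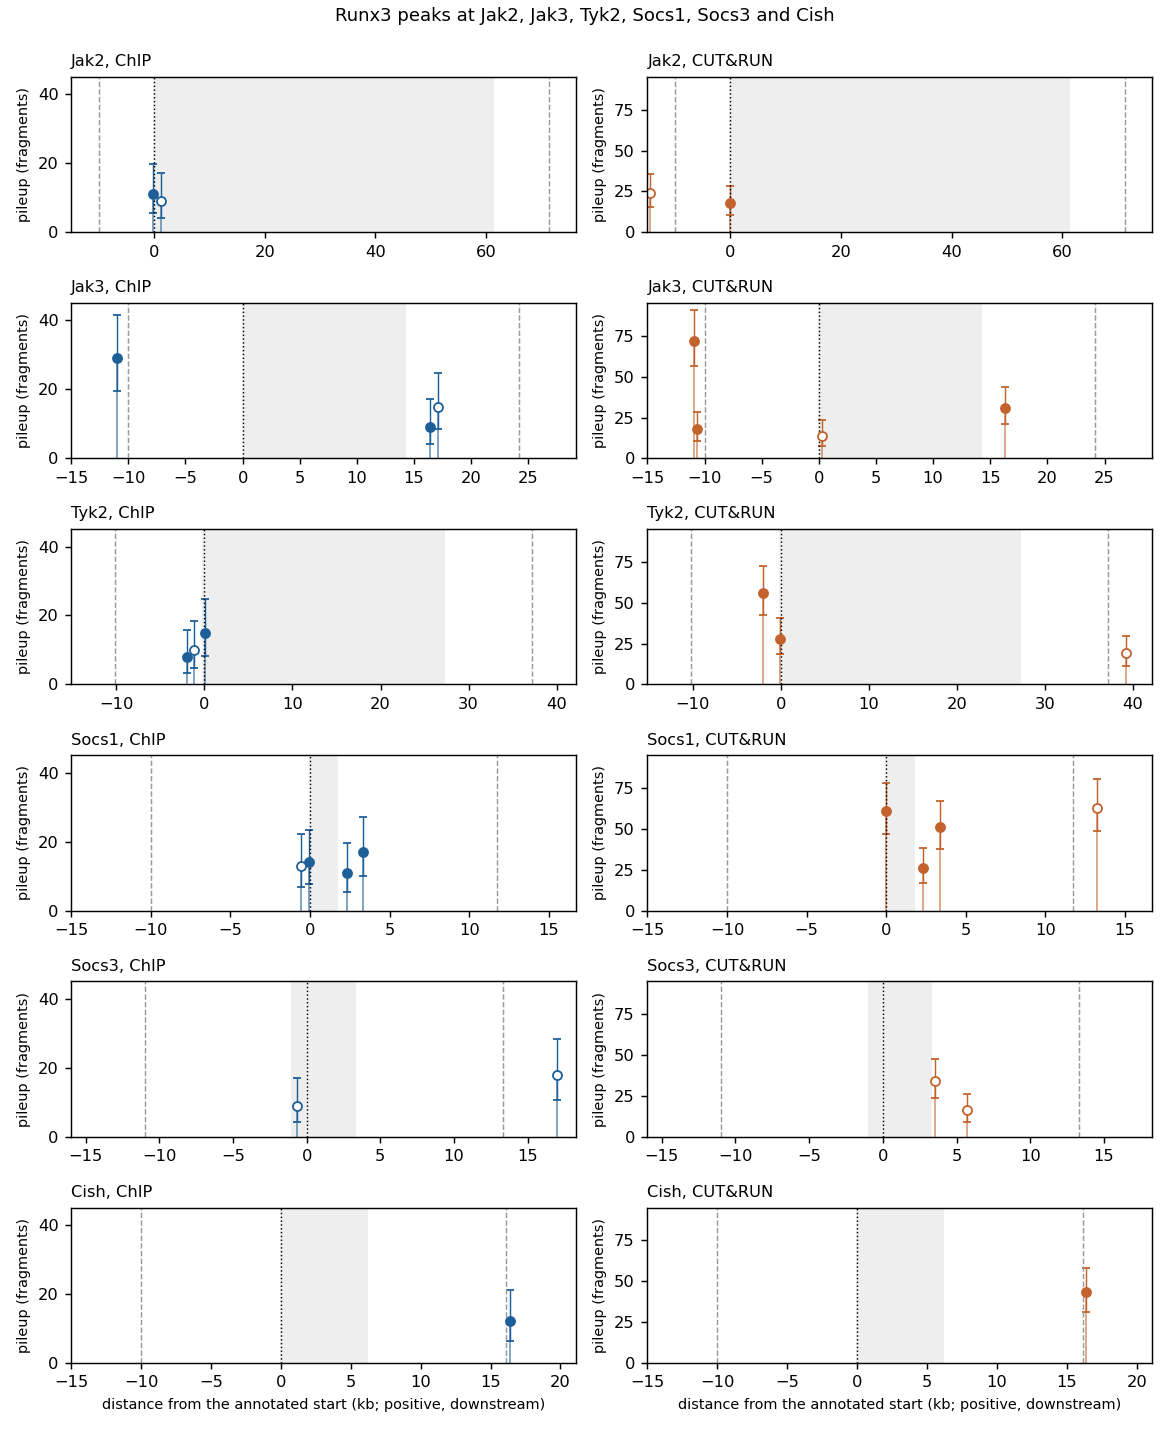
Pileup at each Runx3 summit (vertical axis, fragments, with exact 95% Poisson intervals) against distance from the annotated start (horizontal axis, kb) for Jak2, Jak3, Tyk2, Socs1, Socs3 and Cish, with ChIP left and CUT&RUN right. Grey marks the gene span, the dotted line the start and dashed lines the limits of 10 kb; filled points overlap a peak of the other list. Peaks gather at the starts of Tyk2 and Jak2 and on both sides of Socs1, and the Cish pair lies just outside its dashed line.

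At the 8 genes, as over the whole lists, peaks that overlapped between the lists had the higher median pileup. Of the 20 ChIP peaks, 11 overlapped a CUT&RUN peak (55%, exact 95% interval 31.5 to 76.9), against 66.2% of all ChIP peaks, and of the 19 CUT&RUN peaks 12 overlapped a ChIP peak (63.2%, 38.4 to 83.7), against 58.8% of all CUT&RUN peaks. The overlapping ChIP peaks had pileups of 8 to 38 with a median of 14, and those without overlap of 8 to 15 with a median of 10, against medians of 14 and 9 over the whole ChIP list. The overlapping CUT&RUN peaks had pileups of 18 to 104 with a median of 34.5, and those without overlap of 12 to 34 with a median of 20, against medians of 33 and 18 over the whole CUT&RUN list. The 12 overlapping pairs had summits 7 to 452 bp apart with a median of 50.5 bp, against 39 bp over all 9358 pairs of the lists. The rank correlation of ChIP and CUT&RUN pileup over the 12 pairs was 0.40, against 0.52 over all pairs; it is a description across sites of the same 2 libraries. At the 8 genes, 6 of 20 ChIP summits (30%) and 5 of 19 CUT&RUN summits (26.3%) lay within 1 kb of the gene's own start, against 35% and 34.9% of all summits that lay within 1 kb of any start in the promoter table.

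The rest of the pathway was described from 5 lists. All 7 STAT genes, the factors that JAKs phosphorylate, had peaks in both lists and an overlapping pair. Neighbouring genes were counted separately, so a peak near several genes of a list counted for each. By rank, Stat5b had the best CUT&RUN peak of the STAT genes, with a pileup of 104 (85.0 to 126) and 1.86% of the list above it; its best ChIP peak, with a pileup of 31 (21.1 to 44.0), was another site, at 100824139 against 100804676 in CUT&RUN. The best Stat4 peaks, with pileups of 34 (23.5 to 47.5) in ChIP and 108 (88.6 to 130) in CUT&RUN, were also different sites. Of 35 chains of cytokine receptors that signal through JAKs, 23 had a ChIP peak (65.7%, 47.8 to 80.9), 25 a CUT&RUN peak (71.4%, 53.7 to 85.4) and 20 an overlapping pair (57.1%, 39.4 to 73.7). The best ranked were Il4ra, with pileups of 36 (25.2 to 49.8) in ChIP and 135 (113 to 160) in CUT&RUN, Il2ra with 41 and 106, and Ifnar1 with 23 and 113. No peak lay at Il15ra, Lifr, Osmr, Il13ra1, Csf2rb, Csf3r, Il5ra, Ghr, Prlr and Lepr, among them the receptors of growth hormone, prolactin and leptin.

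The other 4 SOCS genes had at most 2 peaks each in a list. Their best peaks had pileups below the list medians of 12 in ChIP and 25 in CUT&RUN. Of Socs4, Socs5, Socs6 and Socs7, 2 had a ChIP peak, 3 a CUT&RUN peak and 1, Socs6, an overlapping pair, and their best pileups were 9 and 10 in ChIP and 10, 11 and 23 in CUT&RUN. Counted with the family, 4 of 8 SOCS family genes had a ChIP peak, where 40.2% of all protein-coding genes did. In CUT&RUN 5 of 8 had a peak, where 45.1% of all protein-coding genes did. With 8 genes, these counts cannot be told apart from those shares. Among 13 other inhibitors, 12 had a ChIP peak, 10 a CUT&RUN peak and 9 an overlapping pair. Ptprc, the CD45 phosphatase, had pileups of 57 (43.2 to 73.9) in ChIP and 153 (130 to 179) in CUT&RUN, followed by the ubiquitin ligase genes Cblb with 52 and 97 and Cbl with 38 and 57, and Pias1 had no peak. Among 14 targets of STATs, 12 had a ChIP peak (85.7%, 57.2 to 98.2) and 13 a CUT&RUN peak (92.9%, 66.1 to 99.8). An overlapping pair was present at 9 of these targets (64.3%, 35.1 to 87.2). Over all protein-coding genes the shares were 40.2%, 45.1% and 31.5%. The targets were led by Bcl2l1 (27 and 123), Ccnd3 (33 and 127) and Prf1 (29 and 88), while Pim2 had none. The intervals of the JAK list (4 of 4) and of the SOCS and Cish list (2 of 4) overlap widely, so these counts do not separate kinases from inhibitors.

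**Figure D4:**
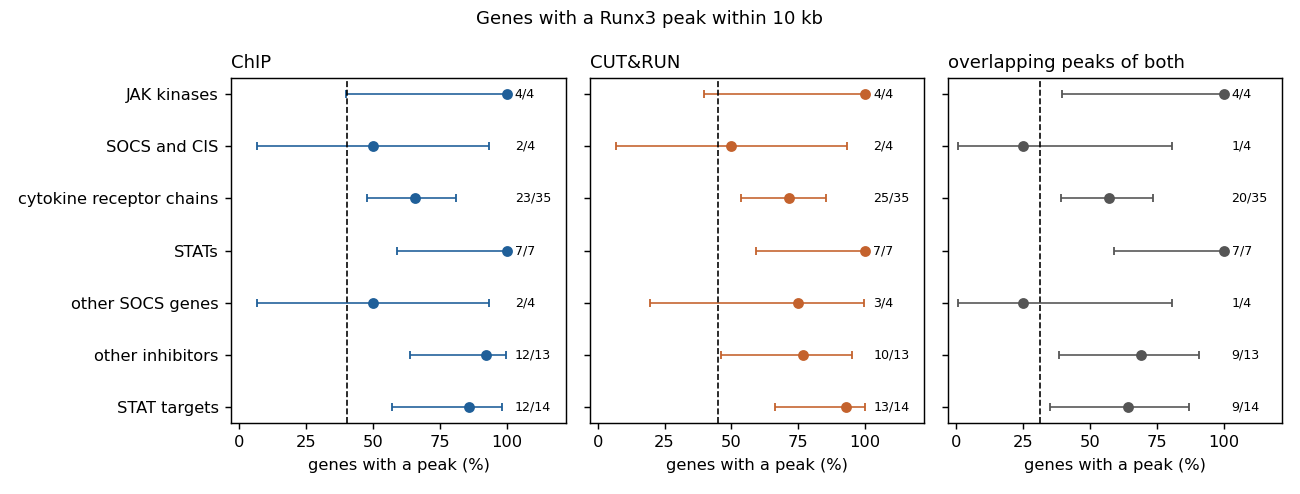
Percentage of genes in each list with a Runx3 peak within 10 kb (points, with exact 95% intervals) for ChIP, CUT&RUN and overlapping peaks of both, with counts at the right of each panel. Dashed lines mark the share over all protein-coding genes, 40.2%, 45.1% and 31.5%. All 4 JAK genes and all 7 STAT genes are at 100% in each panel, and the SOCS and Cish genes are at 50%, 50% and 25%.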

How the data were processed

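The submitters' processing notes name Bowtie, MACS2 and mm10; for Bowtie, version and settings are not given in the sources used here. MACS2 2.1.1.20160309, per the file headers, ran on paired-end fragments with at most 1 fragment kept per position. ChIP peaks passed a q of 0.05, with the whole cell extract as control, after 80.3% of fragments were removed as duplicates. CUT&RUN peaks passed a q of 1e-05 with no control, on an alignment whose name refers to nucleosome-free fragments, after 21.4% were removed. The deposited pileup is a coverage signal in fragments over the summit. The deposited −log10 p and −log10 q values and the fold, a ratio of pileup to expected background, are the peak caller's own, per the file headers, and were compared within a list.

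Here, peaks were assigned to gene spans of the RefSeq table with 10 kb on each side; the table has no exons. All 8 genes and the 81 entries of the pathway and label lists matched it. Overlap was checked with bedtools 2.31.1, and the counting was tested on simulated data. Shares have exact Clopper-Pearson and pileups exact Poisson 95% intervals, which cover counting error only. All peaks of the 8 genes are described; of each pathway list, genes without any peak and the 3 best ranked are named, except that some list genes are not reported here. The members and lists were chosen with earlier results of these data known.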

Additional observations from a re-analysis of the deposited data

How the results depend on the processing

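With 5 kb in place of 10 kb, every count at the 8 genes was as reported. The following counts moved by more than 1.5 times. With gene spans alone, 3 genes had a CUT&RUN peak and 2 an overlapping pair, from 11 ChIP and 10 CUT&RUN peaks; ChIP counts became 1 at Jak2, 0 at Jak3, 1 at Tyk2 and 0 at Socs1, and CUT&RUN counts 0 at Jak2, 1 at Jak3, 1 at Tyk2, 0 at Socs1 and 0 at Socs3. With 20 kb, ChIP counts became 1 at Cish and 2 at Socs3, and CUT&RUN counts 2 at Cish, 2 at Jak2 and 4 at Jak3. With 50 kb there were 37 CUT&RUN peaks in all; ChIP counts became 3 at Cish, 4 at Jak3 and 2 at Socs3, and CUT&RUN counts 3 at Cish, 4 at Jak2, 6 at Jak3, 7 at Socs1 and 5 at Tyk2. With peaks credited to the nearest protein-coding gene, Jak3 had 0 ChIP and 1 CUT&RUN peak. At q of 1e-05 or less in both lists, 11 ChIP peaks were left, 4 at Jak1, 1 at Jak2, 1 at Jak3, 0 at Socs3 and 1 at Tyk2. In the stronger 0.5 of each list, 2 genes had an overlapping pair, from 9 ChIP and 9 CUT&RUN peaks; ChIP counts became 4 at Jak1, 0 at Jak2, 1 at Jak3, 0 at Socs3 and 1 at Tyk2, and CUT&RUN counts 4 at Jak1, 0 at Jak2, 1 at Jak3, 1 at Socs3 and 1 at Tyk2. These alternatives differ in the stretch counted or in the peaks kept, and the share of all protein-coding genes with a peak changed too. With gene spans alone it was 22.4% in ChIP and 24% in CUT&RUN, with 5 kb 35.8% and 40.9%. With 50 kb it was 58.9% and 62.4%. At q of 1e-05 or less it was 29.3% and 45.1%, and in the stronger 0.5 of each list 26% and 28.4%. For overlapping pairs, no such share is given for these alternatives. The share of overlapping peaks stayed inside its interval under every alternative run. No paired analysis was possible because each assay had 1 library. Pileups of 8 to 15 fragments limit the ChIP peaks without overlap: their intervals start at 3.45 to 8.40 fragments.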

Other observations

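Further Runx3 peaks lay beyond the limit of 10 kb. A CUT&RUN peak 11.5 kb past the end of Socs1, with its summit at 10772309 on chromosome 16, held 63 fragments (48.4 to 80.6). It had a fold of 30.0 and 7.99% of its list above it, and it overlapped no ChIP peak. Its pileup was the highest in CUT&RUN within 20 kb of Socs1. The Socs1 promoter peak was close to it at 61 (46.7 to 78.4), and the intervals overlap. A ChIP peak 13.7 kb past the end of Socs3, with its summit at 117952396 on chromosome 11, held 18 fragments (10.7 to 28.4) and overlapped no CUT&RUN peak. It was higher than the ChIP peak inside the Socs3 span, which had a pileup of 9, though the intervals overlap. Upstream of Jak2, a CUT&RUN peak 14.5 kb from the start had a pileup of 24 (15.4 to 35.7) and overlapped no ChIP peak. Upstream of Jak1, a ChIP peak of 9 fragments lay 28.0 kb from the gene and a CUT&RUN peak of 23 fragments lay 35.8 kb from it. Near Cish, a further overlapping pair lay inside the neighbouring gene Hemk1, 31.8 kb past the end of Cish in ChIP with a pileup of 23 (14.6 to 34.5) and 31.7 kb past it in CUT&RUN with a pileup of 54 (40.6 to 70.5). These peaks were picked after their values were seen.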
